A study of Mus musculus with 48 samples.

Results

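Whole-cell RNA taken 60 min after a transcription block was compared with whole-cell RNA taken 30 min after it, to ask which transcripts are lost fastest and what they encode. The cells were E14TG2a, an established line of mouse embryonic stem cells. The comparison comprises the 6 libraries whose titles name the total extract at 30 min (3 libraries) or 60 min (3 libraries), of 48 libraries in the series. Both groups grew on gelatin in serum-containing medium with leukemia inhibitory factor (LIF), the GSK3 inhibitor CHIR99021 and the MEK inhibitor PD0325901. Both groups received 1 µM flavopiridol, so they differ only in the time under the drug, and the 3 replicates of a time were passaged independently. At harvest the cells were scraped into cold buffer with cycloheximide and resuspended in digitonin buffer, and the total extract was set aside before any fraction was spun down. Polyadenylated RNA was sequenced, and a value gives a gene's level as a ratio to 0 min, so that 1 means no change. No library without flavopiridol at either time was analysed here.

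Flavopiridol inhibits CDK9, the kinase of the elongation factor P-TEFb, which releases RNA polymerase II from its pause near the promoter. Once release is blocked, few new mRNAs are begun, although transcripts begun earlier can still be completed. Apart from these, the level of an existing mRNA falls at the pace of its decay. Short-lived mRNAs typically encode regulators, among them transcription factors, feedback inhibitors of signalling and early response genes. Many carry AU-rich elements in their 3′ UTR, which are bound by proteins such as those of the ZFP36 family that recruit the deadenylation machinery.

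To show the AU-rich element in place, 8 named genes that fell and hold the nonamer TTATTTATT in the 3′ UTR were taken in order of p-value (1 chromosome was not used for sequences). Windows of 27 bases around the first copy are printed 5′ to 3′ on the coding strand (GRCm38), with the nonamer in capitals.
Trmt10c: aagttaataTTATTTATTtttaatcga
Nfkbia: gaccacgttTTATTTATTgtgcttttg
Enc1: gtccaaagcTTATTTATTtatctattt
Zfp870: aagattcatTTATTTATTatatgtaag
Zfp599: ctctgctttTTATTTATTtatttaatt
Tagap: cagtagagtTTATTTATTagtcacaat
Zfp280b: ttttaaatcTTATTTATTattgtgtgt
Mat2a: tctaattgcTTATTTATTgtattctgg
The Trmt10c window (chr16:56033714-56033740, minus strand) starts 286 bases into a 3′ UTR of 1417 bases, and the Nfkbia window (chr12:55489609-55489635, minus strand) lies in a 3′ UTR of 512 bases. Zfp599 (chr9:22248002-22248028, minus strand) holds 2 copies and each of the other 7 genes holds 1. The log2 change of the 8 genes from 30 to 60 min lay between -1.01 (Enc1) and -3.47 (Tagap). A match is a description of these letters and not evidence of a bound site.

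The libraries held between 16998 and 17675 listed genes. The ratios of a gene are multiples of whole reads, which were recovered for 14459 of the 14477 genes listed in all 6 libraries (99.88%) and summed to between 4486218 and 5432841 reads per library. The 12 embryonic stem cell markers checked were all listed in the 6 libraries and took 1.14% to 1.18% of the reads at 30 min. Markers of fibroblast feeders took 0.000166% to 0.000295% (1 of 5 listed, Col1a1 not among them), of primitive endoderm 0.000388% to 0.000515% (2 of 5, Gata4 and Sox17 not among them), of trophoblast 0.000663% to 0.00105% (1 of 4, Cdx2 not among them) and of primed epiblast and mesoderm 0.00129% to 0.00179% (5 of 5). Some genes rest on few reads (a mean of 3.17 for Psap, 14.7 for Bsg and 23.2 for Zfp42), so a read number here is not the abundance of the transcript, and the cause was not tested. The median log2 ratio of a library was -0.22 ± 0.07 at 30 min and -0.48 ± 0.10 at 60 min (SD, n = 3), and the median gene changed by -0.25 on the log2 scale. Values below are to be read against this median change under the authors' scaling.

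Transcript levels fell far more often than they rose between 30 and 60 min. The fit over all 14477 genes (limma, Benjamini-Hochberg adjusted p under 0.05), which takes no account of reads, called 3 genes lower (0.0207%) and 0 higher (0%), although 3640 genes were lower and 170 higher at an unadjusted p under 0.05. The 3 were Scrib, 2410002F23Rik and Gm26603, each with a single read in each 60 min library. In data simulated with an assumed spread and no scaling error between libraries, this fit recovered 0% of changed genes. That rate cannot be taken over to the data. With all 12 whole-cell libraries in that fit, 296 of 12762 genes were called lower (2.32%) and 6 higher (0.047%). A second limma fit was chosen after the data had been seen. It covered the 10729 genes with a mean of at least 10 recovered reads, with the variance trend set on reads. This read-aware fit called 2618 genes lower (24.4%) and 29 higher (0.27%), and 491 fell at least 2-fold and 52 at least 4-fold. Centring the libraries on their median gene instead, 819 genes fell and 236 rose, so that the share of rises among the called genes went from 1.10% to 22.4%. Without replicate 2 it called 453 lower and 8 higher, without replicate 3 1856 and 14, and without replicate 1 2579 and 51. With the replicate number as a block it called 4059 lower and 70 higher. The results below come from the read-aware fit, and its p-values measure the spread between 3 cultures per time.

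**Figure D1:**
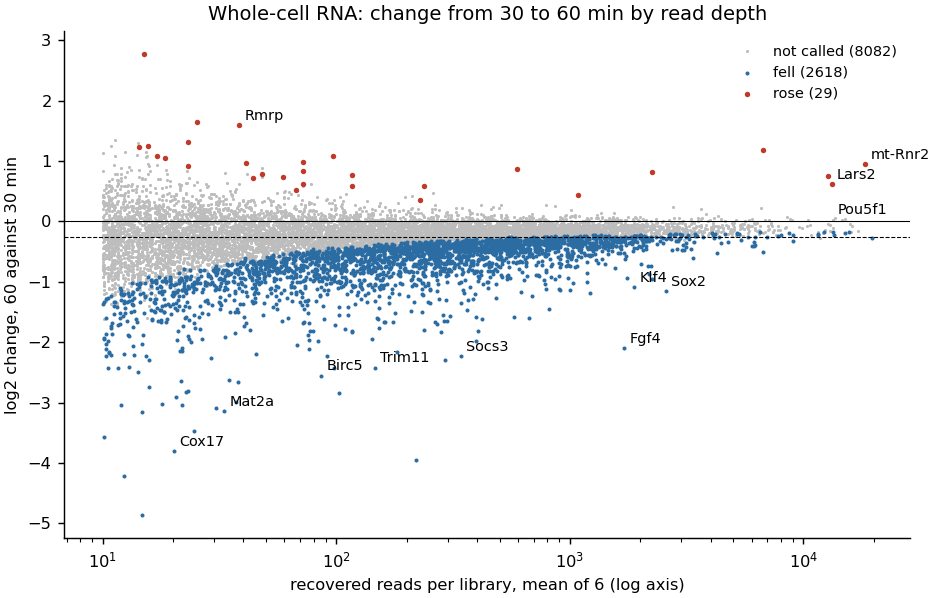
Log2 change from 30 to 60 min (vertical axis) against the mean recovered reads of a gene over the 6 libraries (horizontal axis, log scale), 1 point per tested gene, with the 2618 genes that fell in blue and the 29 that rose in red. The dashed line is the median change of -0.25; small changes were called only at high depth, and most falls beyond 2.5 on the log2 scale lie below 100 reads.

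A halving time was taken as 30 min divided by the size of the log2 change, with no correction for transcripts completed after the block. By it, 491 of the genes that fell halved in under 30 min, 1053 in 30 to 60 min and 1074 in over 60 min. Their median change was -0.57, and in 2469 of the 2618 the 3 libraries at 60 min lay below the 3 libraries at 30 min. The call depended on depth, with 10.5% of genes called lower at 10 to 30 reads, 20.7% at 30 to 100 reads 34.5% at 300 to 1000 reads and 27.5% from 1000 reads up, while the median change was -0.32, -0.30, -0.23 and -0.17 in these classes. A further 131 genes were listed in each library at 30 min and in none at 60 min, and 33 showed the reverse. These have no fold and were not tested.

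Among named genes with at least 100 reads, which leave out predicted models, the largest falls belonged to a ubiquitin ligase, inhibitors and ligands of signalling pathways, and zinc finger factors. Socs3 (ENSMUSG00000053113), the feedback inhibitor of LIF and STAT3 signalling, had the smallest p of all named genes. Its ratios were 0.279, 0.299 and 0.311 at 30 min and 0.0630, 0.0605 and 0.0660 at 60 min, from 568, 515 and 597 reads against 122, 123 and 122. The groups were far apart, and Socs3 fell 4.70-fold, by 2.23 ± 0.10 on the log2 scale (SE, limma adjusted p = 8.81e-09). This is a halving time of 13.5 min (12.8 to 14.1 at 1 SE). Its gene lies on chromosome 11, from 117966079 to 117970047 on the minus strand, with 2 exons and a 3′ UTR of 1474 bases.

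Trim11, a tripartite motif ubiquitin ligase, had ratios of 0.592, 0.736 and 0.723 at 30 min and 0.124, 0.131 and 0.124 at 60 min. The 60 min libraries were tightly grouped below all 30 min libraries, a change of -2.43 ± 0.14 (limma adjusted p = 7.12e-08). Fgf4, the main FGF ligand of naive stem cells, was the most deeply read of these genes, with 2433, 2759 and 3076 reads at 30 min and 652, 590 and 740 at 60 min. Its ratio went from 0.488 ± 0.078 to 0.114 ± 0.018 (SD, n = 3), a change of -2.10 ± 0.12 (limma adjusted p = 1.13e-07) and a halving time of 14.3 min. Nodal, the TGF-β family ligand, went from 0.511 ± 0.049 to 0.159 ± 0.026, by -1.69 ± 0.13. Hes1, a Notch target that represses transcription and its own gene, went from 0.429 ± 0.056 to 0.125 ± 0.011, by -1.77 ± 0.14. Nfkbia, the inhibitor of NF-κB, went from 0.538 ± 0.028 to 0.153 ± 0.008, by -1.81 ± 0.14. Pim3, a serine kinase induced by STAT3, went from 0.532 ± 0.074 to 0.152 ± 0.034. In each of these genes the highest 60 min library was below the lowest 30 min library.

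The zinc finger factors of this group were Zfp296, Klf3, Zfp599, Zfp105, Klf6 and Zfp748. Zfp296, which is expressed in pluripotent cells, had 347, 254 and 288 reads at 30 min and 70, 56 and 79 at 60 min, a change of -2.16 ± 0.16 (limma adjusted p = 5.71e-07). Klf3, a repressor of the Krüppel-like family, changed by -1.98 ± 0.15 and Klf6 by -1.83 ± 0.15. Zfp599, Zfp105 and Zfp748 changed by -1.94, -1.83 and -1.67, with halving times of 15.5, 16.4 and 17.9 min. The group was completed by Arl4d, a small GTPase of the ARF family, at -1.79 ± 0.16, and by Eif4a2, an RNA helicase of translation initiation. Eif4a2 changed by -1.80 ± 0.12, from 0.312 ± 0.034 to 0.0895 ± 0.0068. However, 14.9% of its 31-base windows also occur in other genes, so that some of its reads could match those. Further genes with small p-values were Fzd5, a Wnt receptor (-1.46 ± 0.09), Arrdc3, an arrestin-domain protein (-1.61 ± 0.11), Trmt10c, a subunit of mitochondrial RNase P (-1.64 ± 0.12), and the early response genes Klf10 (-1.60 ± 0.11) and Ier2 (-1.58 ± 0.11). Among predicted genes, which the rule for named genes leaves out, Gm49759 was chosen after its values were seen. It had 337, 408 and 486 reads at 30 min and 24, 32 and 25 at 60 min, a 15.6-fold fall (-3.96 ± 0.16).

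**Figure D2:**
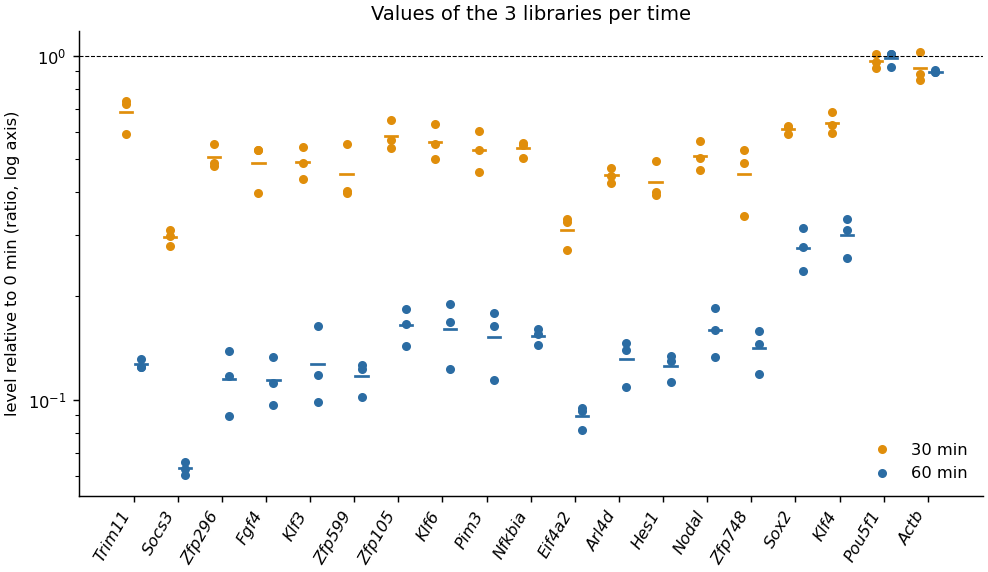
Level relative to 0 min (vertical axis, log scale) in each of the 3 libraries at 30 min (orange) and 60 min (blue), with bars at the means, for the 15 largest falls among named genes with at least 100 reads (predicted models left out) and for Sox2, Klf4, Pou5f1 and Actb. For the first 17 genes all 60 min libraries lie below all 30 min libraries, whereas the groups overlap for Pou5f1 and Actb near a ratio of 1.

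Among named genes at any depth, again with predicted and Rik models left out, the largest falls were mostly measured on few reads, and their sizes are less certain. Adding 0.1 to each ratio makes any change at low ratios smaller, whatever the depth, as for Socs3 (-2.23 to -1.28). It brought Cox17 to -1.35, Tagap to -1.73 and Gas5 to -1.40, smaller changes than those of Brd8 (-1.83) and Trim11 (-1.78). This order does not measure the effect of few reads. Cox17, a copper chaperone for cytochrome c oxidase, had 34, 39 and 38 reads at 30 min and 1, 5 and 4 at 60 min, a change of -3.81 ± 0.47 (limma adjusted p = 6.88e-05). The snoRNA host genes Gas5 and Snhg6 changed by -3.17 ± 0.33 and -2.64 ± 0.30, with 3 reads in each 60 min library for Gas5. Snord78, a snoRNA encoded within the Gas5 locus, changed by -3.10 ± 0.32, but 100% of its windows are shared with other annotated genes, so it cannot be told apart from its host. Tagap, a GTPase activating protein, changed by -3.47 ± 0.29 with 4 reads in each 60 min library, and 54.9% of its windows occur elsewhere. Mat2a, which makes S-adenosylmethionine, went from 52, 69 and 56 reads to 5, 7 and 9 (-3.15 ± 0.28). Skp2, an F-box protein of a ubiquitin ligase that degrades p27, changed by -3.05 ± 0.38, and Rasl11b, a small GTPase, by -2.81 ± 0.41. The MAP kinase phosphatases Dusp1 and Dusp6 changed by -2.65 ± 0.30 and -2.49 ± 0.34, and Ccn1, a matricellular protein, by -2.62 ± 0.24. Birc5 (survivin), a subunit of the chromosomal passenger complex, had 124, 155 and 162 reads at 30 min and 29, 25 and 23 at 60 min (-2.55 ± 0.18). Brd8, a subunit of the NuA4 acetyltransferase complex, changed by -2.43 ± 0.19, and Osm, a cytokine related to LIF, by -2.42 ± 0.48, a call that was lost without replicate 2. Among named genes, with predicted and Rik models left out, the lowest mean ratios at 60 min were 0.0173 for Cox17, 0.0247 for Snord78, 0.0257 for Gas5, 0.0293 for Snhg6 and 0.0294 for Tagap.

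The pluripotency factors were unequal in their loss. Of 22 tested members of this list, 13 fell and 9 did not pass the test, with a median change of -0.62, beside -0.25 and 24.4% over all genes tested. Sox2 had ratios of 0.613 at 30 min and 0.277 at 60 min (means), a change of -1.16 ± 0.09 (limma adjusted p = 1.59e-06). Klf4 changed by -1.09 ± 0.10 and Klf2 by -1.14, Klf5 and Sall4 by -0.89 each, and Prdm14 by -0.83. Zfp42 (Rex1) changed by -1.90 on a mean of 23.2 reads. Pou5f1, which encodes OCT4, had 0.962 at 30 min and 0.983 at 60 min, a change of 0.03 ± 0.06 that did not pass the test. Nanog had a change of -0.26 and Tfcp2l1 of -0.17, and neither passed. Esrrb was listed with a mean of 3.50 reads and was not tested.

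Early response genes had the lowest median of the lists examined. Of 15 tested, 12 fell (80%, beside 24.4% of all genes tested), with a median change of -1.44. Besides Dusp1, Ccn1, Klf6, Klf10 and Ier2 these included Trib1, a pseudokinase that targets C/EBP factors for degradation, at -2.23, Gadd45b at -1.45 and the AP-1 subunits Junb at -1.44 and Jun at -1.34. Mcl1, an antiapoptotic BCL2 protein with a short-lived mRNA, changed by -0.60 on a mean of 3360 reads. Btg2, Srf and Jund had changes of -0.23, -0.19 and 0.02 and did not pass. Fos was listed with a mean of 5.33 reads and was not tested.

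The largest changes in the signalling lists were those of ligands, feedback inhibitors and targets, and the counts below stand beside 24.4% of all genes tested. In the FGF list 9 of 12 fell (median -0.89), with the inhibitors Spry2 at -1.66, Il17rd at -1.31 and Spry4 at -1.30 and the phosphatase Dusp5 at -1.18. In the LIF list 6 of 10 fell (median -0.71), namely Socs3, Pim3, the receptor subunits Il6st and Lifr at -0.92 each, Pim1 at -0.91 and Bcl3 at -0.51. The kinases Jak1 and Tyk2 had changes of -0.11 and 0.04 and did not pass. In the Notch list 7 of 11 fell (median -0.51), including the feedback inhibitor Nrarp at -1.28, the ligand Jag1 at -0.84 and the receptor Notch1 at -0.53. In the BMP list 7 of 13 fell (median -0.51), including the pseudoreceptor Bambi at -1.66, the inhibitory Smad7 at -1.20 and the targets Id3 at -1.06 and Id4 at -0.81. Of the transducers Smad1 and Smad5 passed at -0.75 and -0.51, while the common Smad4 had a change of -0.01 and did not pass. In the Nodal list 6 of 11 fell (median -0.37), including the inhibitors Lefty1 at -1.11 and Lefty2 at -0.45. In the Wnt list 1 of 10 fell (median -0.28), the feedback inhibitor Axin2 at -0.94, while 5 were lower at an unadjusted p under 0.05. CHIR99021 and PD0325901 were present throughout, so these lists describe cells with the GSK3 and MEK kinases inhibited.

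Cell cycle and p53 genes moved in part, and their counts stand beside 24.4% of all genes tested. Of 17 tested G1 cyclins, kinases and their regulators, 8 fell (median -0.34), with the inhibitors Cdkn1a at -1.35 and Cdkn1b at -0.97 and the cyclins Ccnd1 at -0.37 and Ccne1 at -0.34. Of 32 mitotic regulators 15 fell, but their median of -0.26 was close to that of all genes. After Birc5 the largest change was that of Fbxo5 (Emi1), the inhibitor of the anaphase-promoting complex, at -1.59. Of 24 p53 genes and targets 10 fell (median -0.26), including Plk2 at -0.86 and Ppm1d at -0.49. Of 11 BCL2 family genes 5 fell (median -0.39), and the BH3-only genes Pmaip1 and Bbc3 had changes of 0.01 and -0.30 and did not pass.

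Genes of RNA turnover and of the drug's own target pathway were among those that fell. In the list of AU-rich decay and deadenylation 15 of 26 fell (median -0.37), including the antiproliferative adaptors Tob1 at -1.65, Tob2 at -1.26 and Btg1 at -0.90, which bring the CCR4-NOT deadenylase to mRNAs. Zfp36l2 and Zfp36l1, which bind AU-rich elements, changed by -1.40 and -0.70. The deadenylase subunits that passed changed less, by -0.37 to -0.44 for Cnot3, Cnot6, Cnot9, Cnot8 and Cnot6l. Of 20 genes of P-TEFb and elongation control 8 fell (median -0.29). They included Mepce, which caps 7SK RNA, at -1.26, Ccnt1, the cyclin of P-TEFb, at -0.73 and the inhibitor Hexim1 at -0.52. Cdk9 was listed with a mean of 2.67 reads and was not tested. Of 12 factors of nonsense-mediated decay 3 fell (median -0.23), Smg8 with -0.68 among them, which is near the share of all genes tested (24.4%).

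Among long noncoding RNAs and snoRNA hosts 11 of 19 fell and 1 rose (median -0.70), beside 24.4% and 0.27% of all genes tested. Besides Gas5 and Snhg6 these were Mir17hg, the host of the miR-17 cluster, at -1.81, Dleu2 at -1.31, Snhg17 and Snhg5 at -1.08 and -1.07, Tug1 at -0.85, Snhg3 at -0.78, Zfas1 at -0.76, Xist at -0.70 and its antisense partner Tsix at -0.57. Several were already low at 30 min, with mean ratios of 0.182 for Zfas1, 0.201 for Mir17hg and 0.234 for Snhg5. The nuclear RNAs Malat1 and Firre had changes of 0.22 and 0.14 and did not pass, and Neat1, the paraspeckle scaffold, rose by 0.59 ± 0.17 (limma adjusted p = 0.0226), a call lost without any 1 of the 3 replicate numbers.

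Other lists lay between these, and their counts stand beside 24.4% of all genes tested. The shares of the unfolded protein response (30.4%), Polycomb (30%) and cholesterol (18.2%) lists were near it. Of 23 genes of the unfolded protein response 7 fell (median -0.23), led by the co-chaperone Dnajb9 at -1.29 and the regulators Atf4 at -1.02 and Ppp1r15b at -0.95. The chaperones Hspa5 (on a mean of 18.5 reads), Hsp90b1 and Calr had changes between -0.01 and -0.20 and did not pass. Canx, another chaperone, had a change of -0.36. Of 22 genes of cholesterol synthesis and uptake 4 fell (median -0.20). Of 20 Polycomb genes 6 fell (median -0.37), with Cbx8 at -0.99 and Rybp at -0.71. Of 7 genes of DNA methylation 4 fell (median -0.45), with Tet3 at -0.80 and Mbd4 at -0.78. Of 17 SR proteins and their kinases 6 fell (median -0.23), none by more than Clk4 at -0.63.

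Most genes of core metabolism and protein turnover changed little under the authors' scaling. None of 13 glycolysis genes passed the limma test (0, with 1 at an unadjusted p under 0.05), and their median change was -0.06. Of 29 proteasome subunits 2 fell (median -0.07), Psmd4 at -1.64 on a mean of 12.7 reads and Psmd7 at -0.31. Of 53 cytosolic ribosomal protein genes 1 fell (median -0.05), and of 67 respiratory chain genes 4 fell (median -0.03). The lowest change of the respiratory chain genes was the -3.81 of Cox17. After centring on the median gene the medians of these 4 groups lie above 0 by construction, and the proteasome subunits Psmc1 and Psmd1, at -0.01 and -0.03, became 0.24 and 0.22. Reads of ribosomal protein genes can also match their many pseudogenes. Of 63 mitochondrial ribosomal protein genes 15 fell (median -0.19), a share of 23.8% beside 24.4% of all genes. Actb, a common reference gene, had mean ratios of 0.919 at 30 min and 0.899 at 60 min and did not pass.

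Taken by symbol, the numbered Zfp zinc finger genes, most of which encode C2H2 zinc finger proteins, were the largest family with a low median. Of 241 tested, 184 fell (76.3%) and none rose, with a median change of -0.80 and a range from -2.20 to 0.73. Of 48 Sox, Klf, Fox, Gata, Pou and Hox genes 26 fell (median -0.54). Families of ubiquitin ligases and their subunits had medians between these and that of all genes, with falls in 10 of 18 Trim genes (median -0.37), 14 of 37 F-box genes (-0.34), 15 of 38 Rnf genes (-0.35) and 8 of 14 Klhl genes (-0.47). Of 154 solute carrier genes 41 fell (median -0.27), a share of 26.6% beside 24.4% of all genes tested, and of 26 kinesin genes 10 fell (median -0.30). Of 46 translation initiation factor genes 5 fell (median -0.12), Eif4a2 with the largest change. The lists and families were chosen with results of these data known, so their counts are descriptions.

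**Figure D3:**
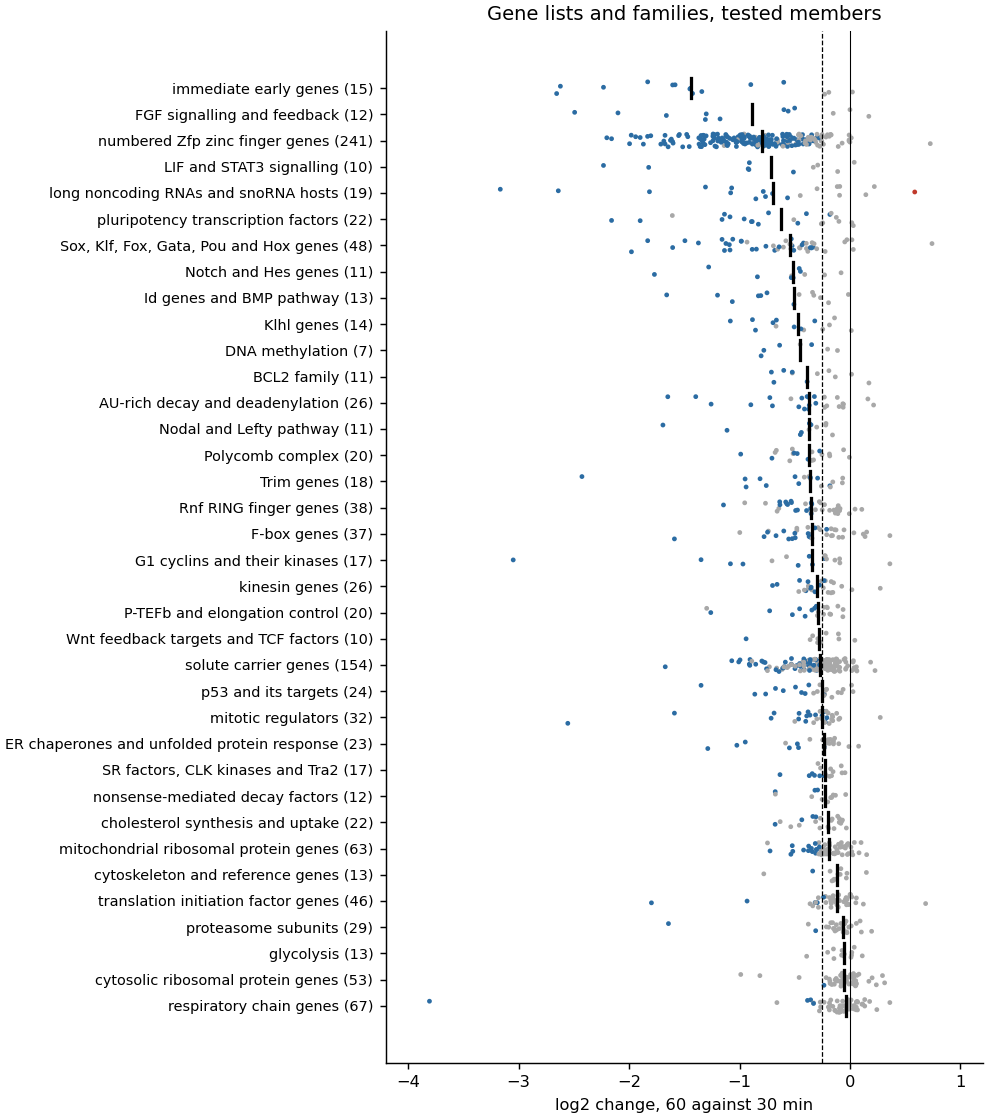
Log2 change from 30 to 60 min (horizontal axis) of each tested member of the gene lists and families with at least 7 tested members, whose number stands in brackets, with genes that fell in blue, genes that rose in red and the others in grey. Black bars are medians and the dashed line is the median of all genes (-0.25); early response genes have the lowest median (-1.44) and respiratory chain genes the highest (-0.03).

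The genes that fell fastest differed from the others in features of their annotation, although no feature was common to them all. Of 8626 protein-coding genes tested, the 369 that fell at least 2-fold had a median of 4 exons and a gene span of 12160 bases, against 9 exons and 23780 bases over all of them. The heptamer TATTTAT stood in the 3′ UTR of 43.4% of the 369, 36.7% of the 1939 that fell less and 25.9% of the 6314 not called, beside 29.1% of all. For the nonamer TTATTTATT, which contains the heptamer, the shares were 17.1%, 10.2% and 6.37%, beside 7.70% of all. Both were searched on the transcript strand of 1 annotated 3′ UTR per gene. Longer UTRs hold more matches by length alone. The median UTR was 1210 bases for the 369, 1642 for the genes that fell less, 958.5 for those not called and 1098 over all. Within 3′ UTRs of over 500 and up to 1000 bases the median change was -0.28 with the heptamer and -0.23 without it, and within those of over 1000 and up to 2000 bases -0.28 and -0.26.

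By number of exons the median change was -0.39 for 308 single-exon genes and -0.22 for 1075 genes with over 20 exons, although the single-exon genes also had fewer reads (a median of 53.2 against 266). By length of the 3′ UTR it was -0.18 up to 250 bases and -0.34 over 4000 bases. By copies of the heptamer it went from -0.23 with none to -0.37 with 4 or more (119 genes). The quartiles of neighbouring classes overlapped in each case. By gene span the median change was -0.25 up to 5 kb, -0.27 from 5 to 15 kb and -0.26 from 15 to 40 kb. It was -0.24 from 40 to 100 kb and -0.23 over 100 kb, so an order held only from 5 kb up.

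**Figure D4:**
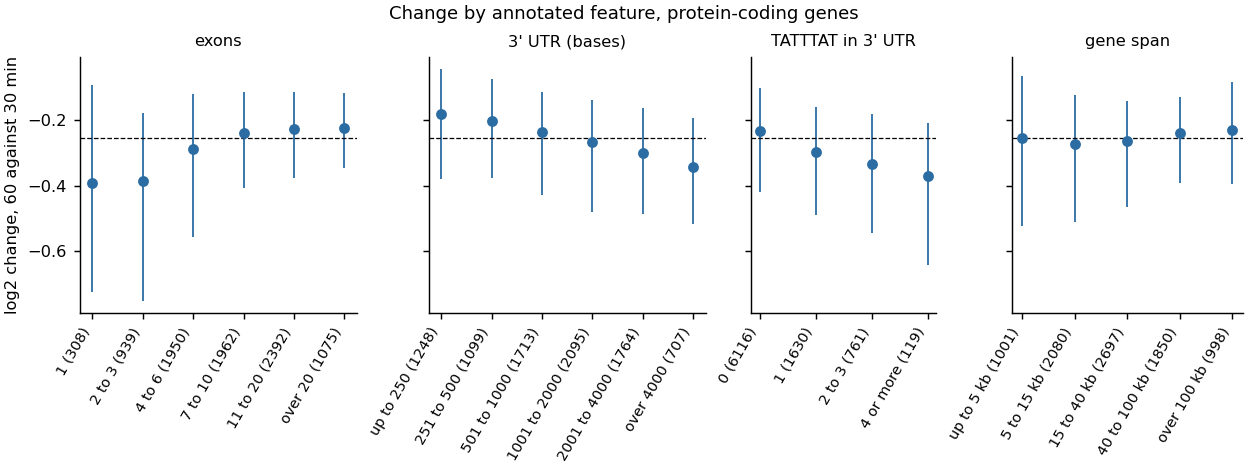
Median log2 change from 30 to 60 min (points, with bars from the lower to the upper quartile over genes) of protein-coding genes by number of exons, length of the 3′ UTR in bases, copies of TATTTAT in the 3′ UTR and gene span, with the number of genes in brackets. The dashed line is the median of all protein-coding genes; the median falls from -0.18 to -0.34 with UTR length and from -0.23 to -0.37 with copies of the heptamer.

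The second 30 min were then compared with the first, since a constant decay rate with no new transcripts gives equal log2 changes in both. Transcripts still completed after the block could alter these changes, which was not tested. The levels at 30 min enter both changes, and the error of the 0 min level is not in the spread of these libraries. Over the tested genes the median log2 ratio at 30 min was -0.21 and the median change from 30 to 60 min -0.25, and 59.2% of genes had the lower change in the second interval. The read-aware limma fit called 10 genes with a larger fall in the second interval (0.0932%) and 5 with a smaller one (0.0466%), while the fit over all genes called 0 in either direction, with 566 and 463 at an unadjusted p under 0.05. Without replicate 2 none was called, without replicate 1 75 and 46 were, and without replicate 3 5 and 2. With the replicate number as a block the read-aware fit called 106 and 38. Trim11 had a log2 ratio of -0.56 at 30 min and changed by a further -2.43, a difference of -1.87 ± 0.22 (adjusted p = 0.00131). Brd8 had -0.39 and then -2.43, a difference of -2.04 ± 0.30 (adjusted p = 0.0121). The other 8 with a larger second fall were D430013B06Rik and 7 predicted genes, among them Gm49759 with -1.45 and then -3.96. Not all of them fell in the first interval. D430013B06Rik, Gm45221 and Gm43314 had mean ratios of 2.28, 2.25 and 1.38 at 30 min, above their 0 min level. Socs3, Fgf4, Sox2 and Klf4 were not called. The 5 with a smaller second fall or a rise were Rmrp, n-R5-8s1, Lars2, 2410006H16Rik and Gm17300. Of these Gm17300 had -1.94 and then -0.74, and 2410006H16Rik had -1.88 and then 0.27, so that most of their change came in the first 30 min.

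**Figure D5:**
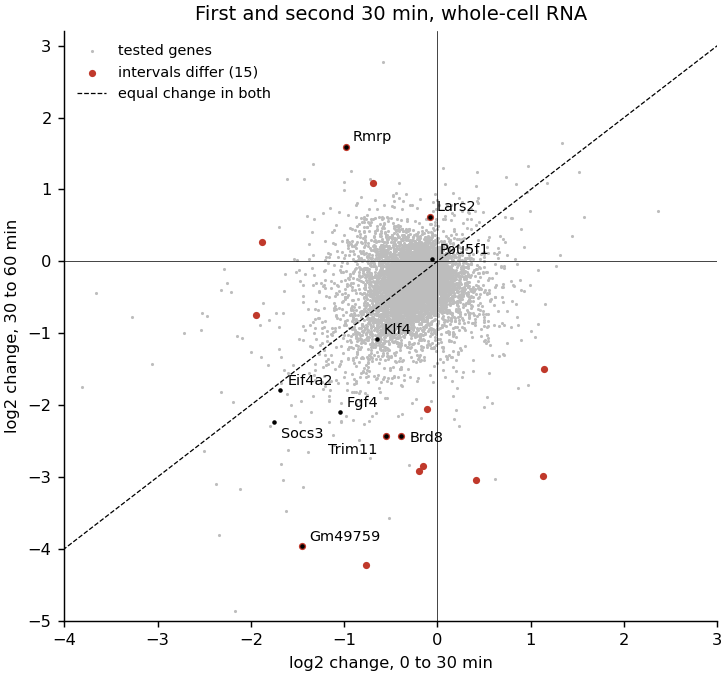
Log2 change from 30 to 60 min (vertical axis) against log2 change from 0 to 30 min (horizontal axis) for each tested gene, with the 15 genes whose changes differed between the intervals in red. The dashed line marks equal changes; Trim11, Brd8 and Gm49759 lie below it and Rmrp and Lars2 above it.

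Only 29 genes rose, and few of them were protein-coding. By annotated type 4 were protein-coding genes and 5 processed pseudogenes, and the rest included ribosomal and other RNAs that RNA polymerase II does not make. Mt-Rnr2, the large mitochondrial ribosomal RNA, had ratios of 0.556, 0.858 and 0.824 at 30 min and 0.998, 1.47 and 1.93 at 60 min. Its groups did not overlap, and it rose by 0.95 ± 0.19 (limma adjusted p = 0.00240). Mt-Rnr1, the small one, rose by 0.75 ± 0.14. The 5.8S ribosomal RNA gene n-R5-8s1 rose by 1.09 ± 0.19, Rn7sk, the 7SK RNA that holds P-TEFb inactive, by 0.84 ± 0.23 and Rmrp, the RNA of the RNase MRP, by 1.59 ± 0.28, although 72.8% of the windows of Rn7sk and 100% of those of Rmrp occur in other genes. Such RNAs carry few or no long poly(A) tails, and how their reads entered these libraries was not tested. Lars2, the mitochondrial leucyl-tRNA synthetase, went from 10053, 9025 and 11712 reads to 15389, 17646 and 15457 (0.62 ± 0.08, limma adjusted p = 6.54e-05). The other protein-coding genes were Lrrtm2, a synaptic adhesion protein, at 1.64 ± 0.31 from 11, 13 and 11 reads to 25, 40 and 52, Usp15, a deubiquitinase, at 0.78 ± 0.24 and Cavin4, a caveolar protein, at 0.74 ± 0.21. The calls of Usp15, Cavin4 and Rn7sk were lost without replicate 2 or without replicate 3, and that of mt-Rnr1 without replicate 2. The calls of Lars2, mt-Rnr2, n-R5-8s1, Rn7sk and Usp15 were lost with all 12 whole-cell libraries in the fit.

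To compare whole-cell RNA with its compartments, its 30 to 60 min change was set against that of the nuclear and the cytosolic fraction. By the protocol the total extract was taken from the suspension that was then fractionated, so whole-cell RNA includes that of each fraction. The fits treated whole-cell and fraction libraries as independent, although those of a time can share cultures. Against the nucleus the read-aware limma fit called 0 of 10308 genes in either direction (0%), with 357 lower and 151 higher in the nucleus at an unadjusted p under 0.05, and the median standard error of the difference was 0.28. Without replicate 1 it called 231 lower and 6 higher in the nucleus, and after centring on the median gene 12 and 21. Against the cytosol it called 3 genes lower (0.0306%) and 7 higher (0.0714%) in the cytosol, of 9802. The fit over all genes called 0 in each. The cytosolic calls were all lost without replicate 2 or without replicate 3. With the replicate number as a block the read-aware fit called 23 genes lower and 61 higher in the cytosol. Scaling libraries to the mt-encoded mRNAs instead gave 7375 genes lower and 5 higher in the cytosol. That scale is uncertain, since only 4 of the 10 mt-encoded mRNAs listed in whole-cell RNA had a mean of at least 10 reads. Among these 4, mt-Nd6 itself changed by 1.08 in the cytosol and by -0.28 in whole-cell RNA. Over all genes tested the median change was -0.29 in the nucleus and -0.14 in the cytosol, beside -0.25 in whole-cell RNA. Trim11 had a log2 change of -1.14 in the cytosol beside -2.43 in whole-cell RNA (a difference of 1.29 ± 0.21, adjusted p = 0.0126), and had a change of -3.18 in the nucleus. Xist had a change of 0.57 in the cytosol and -0.70 in whole-cell RNA, and Kcnq1ot1, a long antisense RNA of an imprinted locus, 1.22 and -0.45. Gpc4, a cell surface glypican, had 0.61 and -0.18, and Frem2, an extracellular matrix protein, 0.97 and -0.31. Col4a2, a collagen chain, was the only named protein-coding gene lower in the cytosol, at -1.22 beside -0.19. Socs3 changed by -1.86 in the nucleus, -2.23 in whole-cell RNA and -2.45 in the cytosol, and Fgf4 by -1.94, -2.10 and -1.58.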

How the data were processed

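Stranded polyA libraries were aligned to GRCm38 by the authors with STAR 2.7.6 and counted per gene, as they state, with RSEM 1.3.3. The ratios gave whole reads for 99.88% of genes, and how reads matching several genes were counted was not tested. The authors scaled libraries on long-lived genes and divided by 0 min. Each deposited value is thus a ratio, headed as a normalized count, and genes at 0 are not listed. Groups and replicate numbers come from the titles. Log2 ratios were used with no pseudocount for genes listed in all 6 libraries. The smallest whole numbers that give a gene's ratios (relative tolerance 1e-09) were taken as its recovered reads; they can be too low where the true reads share a divisor, and no count model was run. Differences were tested with limma 3.58.1 in R 4.3.3 (two-sided, with a variance trend and Benjamini-Hochberg adjustment, threshold 0.05), first over 14477 genes as designed, then, chosen after seeing the data, over 10729 genes with a mean of at least 10 recovered reads and the variance trend on reads. In simulated data the second fit recovered 68.8% of genes changed 1.5-fold, 85.7% changed 2-fold and 100% changed 4-fold (10716 genes), with 7 calls among 10527 unchanged genes. Reads were simulated independently with an assumed spread and no scaling error between libraries, so these rates cannot be taken over to the data. Named genes are, among called genes with a symbol that moved alike between the libraries of each replicate number (a filter only), the 15 largest falls, 10 smallest p, 10 largest rises, 5 lowest ratios at 60 min and list members, plus the 15 largest falls with at least 100 reads, a set added later. Predicted genes were skipped. The rule was applied to the second fit. The members and lists were chosen with earlier results of these data known. Of the 14477 identifiers, 14445 matched a symbol. Positions, exons and UTRs come from a GENCODE annotation of GRCm38. Windows of 31 bases shared with other annotated genes mark uncertain reads. Some genes were not analysed here. Figures were drawn in Python 3.11.15.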

Additional observations from a re-analysis of the deposited data

Results flagged for a closer look

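Genes whose 30 to 60 min change differed between cytosol and whole-cell RNA by limma's interaction were Kcnq1ot1 (cytosol minus whole cell, 1.67 on the log2 scale), mt-Nd6 (1.36), Trim11 (1.29), Frem2 (1.28), Xist (1.27), Gpc4 (0.80) and Col4a2 (-1.03). Each rests on 3 replicates per time, and no call remained without replicate 2 or without replicate 3.

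Genes whose change differed between the first and the second 30 min, given as second minus first on the log2 scale, were Rmrp (2.58), n-R5-8s1 (1.78), Lars2 (0.71), Trim11 (-1.87) and Brd8 (-2.04). No call remained without replicate 2.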

How the results depend on the processing

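The fit over all 14477 genes called 3 lower and 0 higher. It called 1 lower with a pseudocount of 0.1, 0 with genes listed in all 12 whole-cell libraries, with scaling to mt-encoded mRNAs and without any 1 replicate, 296 lower and 6 higher with all 12 libraries in the fit, and 545 and 9 without the variance trend. For the second against the first 30 min these last fits called 1 smaller fall and 2 larger falls, respectively. The median change of -0.25 became 0.0039 with libraries centred on their median gene and otherwise lay between -0.21 and -0.30.

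The read-aware fit (2618 lower, 29 higher) called 819 and 236 with median centring, 1409 lower with mt-encoded scaling, 1342 and 9 with 12 libraries, 16 higher at a minimum of 50 reads (of 7212 genes), and 453 to 2579 lower and 8 to 51 higher with a replicate left out. For the second against the first interval (10 and 5) it called 19 larger falls with a pseudocount of 0.1, 29 and 14 with median centring, 8 smaller falls with mt-encoded scaling, 0 and 0 with 12 libraries, 4 and 1 at 50 reads, and 0 to 75 and 0 to 46 with a replicate left out. For nucleus against whole cell (0 and 0) it called 12 lower and 21 higher with median centring, and 0 to 231 lower and 0 to 6 higher with a replicate left out, the highest counts without replicate 1. For cytosol against whole cell the fit over all genes (0 and 0) called 6704 lower and 13 higher with mt-encoded scaling, and the read-aware fit (3 and 7) called 7375 lower with it and 0 to 14 lower and 0 to 8 higher with a replicate left out. The mt-encoded scale is uncertain, as few of its genes had a mean of at least 10 reads.

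With the replicate number as a block the fit over all genes called 0 lower, and the read-aware fit 4059 lower and 70 higher, 106 larger and 38 smaller second falls, and, in the cytosol, 23 lower and 61 higher. Same-numbered libraries correlated at 0.09, 0.02 and 0.02 over all genes in their deviation from the time means. Over the 10729 genes of the read-aware fit the values were 0.21, 0.04 and 0.05, so the numbers were not taken as pairs. Over genes with at least 100 reads, however, the values were 0.54, 0.19 and 0.26. There the 30 min library of replicate 2 correlated best with the 60 min library of replicate 3 (0.33), so not each library matched its own number.

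With median centring some small changes turned positive, namely Trim28 (0.067), Bub1b (0.040), Top2a (0.025), E2f4 (0.019), Pdia4 (0.017), Kif23 (0.015), Sesn2 (0.014), Srpk1 (0.0087), Psmc1 (0.24) and Psmd1 (0.22). Of the 44 genes named by rank, all kept their call with the pseudocount, both scalings and the block, although the pseudocount made the changes of genes with low ratios smaller. In the fit of 12 libraries 30 of 35 did, and n-R5-8s1, mt-Rnr2, Rn7sk, Usp15 and Lars2 lost it. The causes were not tested.

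In simulated data the read-aware fit missed part of the genes changed 1.5-fold, and genes at 0 at 60 min could not be tested.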
